A study of Mus musculus with 12 samples.

Results

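Meg3 and 9 other imprinted genes (Rian, Mirg, Igf2r, Airn, Peg3, Peg13, Kcnq1ot1, Plagl1 and Impact) were examined by bulk RNA-seq in sdCAMs, the CNS-associated macrophages found below the dura, in the leptomeninges and around vessels. They are 10 of the 56735 gene names in the count table. Meg3 was selected because it was higher in tdT+ cells after BLZ945 than after vehicle. Rian and Mirg were added because they follow Meg3 on chromosome 12, and the other 7 because they are imprinted at other loci. Of the 10, 7 passed a filter on low counts and were fitted among 13724 genes. Mirg and Airn did not pass, and Plagl1 had 0 counts in all 12 libraries.

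All mice were Mrc1CreERT2/CreERT2:R26tdT/tdT, in which tamoxifen switches on a tdTomato (tdT) reporter in cells that use the Mrc1 locus, the gene of CD206. Every mouse received tamoxifen, and 4 weeks later either vehicle or 200 mg per kg of BLZ945, an inhibitor of the CSF-1 receptor on which macrophages depend, for 7 days. CD206+ cells were sorted from brain without choroid plexuses 8 weeks after the treatment ended, giving 4 libraries each of vehicle tdT+, BLZ945 tdT+ and BLZ945 tdT- cells from mice labelled F1, F2, M1 and M2. The tdT+ cells descend from cells labelled at tamoxifen, whereas tdT- cells were unlabelled then or arose from other cells. The labels give no age, and the vehicle libraries are named pre and the BLZ945 libraries Post, so treatment and any difference in handling cannot be told apart.

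In an imprinted gene, a methylation mark laid down in the egg or sperm leaves expression mainly to either the maternal or the paternal copy. Imprinted genes lie in clusters, and many clusters hold a long noncoding RNA and share a control region. Meg3, Rian and Mirg are noncoding RNAs of the maternal copy in the Dlk1-Dio3 domain and lie in that order on the plus strand, where they are thought to belong to a single long transcription unit that also holds many microRNAs and small nucleolar RNAs. The counts do not separate the parental copies.

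Totals lay between 19969308 and 23395058 counts per library, so that 3 counts, taken as the floor of detection, corresponded to between 2.597 and 3.16 normalised counts (counts divided by the size factor of the library). The BLZ945 tdT- library F2 stood apart, since its 5 neutrophil markers summed to 422704 normalised counts against at most 69.4 in the other 11 libraries. The vehicle library F2 held 112 counts of the Y-linked gene Kdm5d, of which the other 5 libraries labelled F held 0. The tdTomato entry had 0 counts in all 12 libraries and could not check the tdT labels. The 8 sdCAM markers were all counted in each group and summed to between 277135 and 327466 normalised counts in vehicle tdT+, between 316276 and 355849 in BLZ945 tdT+ and between 184910 and 243762 in tdT- libraries. In tdT- cells, 4 of the 8 were called lower against BLZ945 tdT+ and 3 against vehicle. The largest part of these sums was Csf1r, with means of 160349, 169217 and 141088 in the same order of groups. Single markers went both ways, Cd163 with means of 29301, 42727 and 6088 and Cx3cr1 with 16345, 13629 and 24763. The 6 microglia markers, also all counted, summed to between 46907 and 76085 normalised counts in vehicle tdT+, between 80456 and 104635 in BLZ945 tdT+ and between 212440 and 457232 in tdT- libraries. All 6 were called higher in tdT- cells, both against BLZ945 tdT+ and against vehicle.

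The promoters of Meg3 and Rian are shown because Meg3 changed and Rian is the next of the 10 genes on the same strand. Both sequences are from RefSeq (GRCm38.p6, plus strand) and run from 250 bases before to 50 bases after the annotated start. Capitals mark TGCCGC (the motif of ZFP57, which protects imprints), TGACGTCA (CRE, bound by CREB), CCAAT and TATAAA on either strand, and AP-1 (TGANTCA, bound by Fos and Jun) was searched too.
Meg3 promoter, chr12:109540746-109541045: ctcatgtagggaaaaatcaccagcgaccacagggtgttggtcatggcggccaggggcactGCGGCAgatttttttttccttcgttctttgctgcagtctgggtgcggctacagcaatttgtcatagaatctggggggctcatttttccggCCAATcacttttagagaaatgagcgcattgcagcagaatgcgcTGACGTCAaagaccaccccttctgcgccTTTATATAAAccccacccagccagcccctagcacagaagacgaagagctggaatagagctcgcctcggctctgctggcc
Rian promoter, chr12:109603695-109603994: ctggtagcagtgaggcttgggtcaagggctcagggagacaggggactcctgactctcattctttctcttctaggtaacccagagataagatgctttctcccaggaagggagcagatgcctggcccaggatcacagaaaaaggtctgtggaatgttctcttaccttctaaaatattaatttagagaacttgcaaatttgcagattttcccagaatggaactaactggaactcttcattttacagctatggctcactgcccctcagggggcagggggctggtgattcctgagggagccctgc

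The Meg3 window held 1 TGCCGC motif starting 190 bases upstream of the start, 1 CCAAT 100 bases upstream, 1 CRE 57 bases upstream and 2 overlapping TATAAA motifs 29 and 25 bases upstream. The Rian window held none of the 5 motifs. Of 32851 promoter windows of this length, 11.6% held TGCCGC, 1.79% CRE, 7.81% AP-1, 37.4% CCAAT and 13.6% TATAAA. Windows were found for 8 of the 10 genes (not for Peg13 and Impact), 9 windows in all, since Meg3 has a second annotated start. CRE occurred in 2 of the 9 windows, those of Meg3 and Peg3, TGCCGC in those of Meg3 and Plagl1, and AP-1 in 0. A motif here is a match of letters only.

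Meg3 is a long noncoding RNA known for its high level in brain and for slowing cell growth (chromosome 12, 109506879 to 109538165, plus strand, GRCm39). Its vehicle tdT+ libraries F1, F2, M1 and M2 held 229.6, 201, 143 and 109 normalised counts. The BLZ945 tdT+ libraries held 1247, 911, 889 and 1814, and the BLZ945 tdT- libraries 824, 1069.5, 1195 and 1069. Every BLZ945 library, tdT+ or tdT-, thus lay above every vehicle library, whereas the tdT+ and tdT- libraries of BLZ945 mice overlapped.

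The group means of Meg3 were 171 ± 54.7 (SD, n = 4) in vehicle tdT+, 1215 ± 432 in BLZ945 tdT+ and 1039 ± 155 in BLZ945 tdT- cells. The ratio of means to vehicle was 7.12 for BLZ945 tdT+ and 6.09 for BLZ945 tdT- cells. The log2 fold changes, unshrunken with their standard errors, were 2.83 ± 0.32 and 2.61 ± 0.32. Between tdT- and tdT+ cells of BLZ945 mice the difference was -0.23 ± 0.32. These values are a description with no test, because the first chose Meg3 and the others share its libraries. Without the tdT- library F2, the difference of tdT- cells from vehicle was 2.59 ± 0.36.

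Cells rich in Meg3, such as neurons, were looked for by their markers. Of 10 neuron markers, 9 were counted in vehicle tdT+, 10 in BLZ945 tdT+ and 9 in tdT- libraries, with Gad2 at 0 in the first and last. Their sum lay between 519 and 793 normalised counts in vehicle tdT+, between 426 and 604 in BLZ945 tdT+ and between 191 and 491 in tdT- libraries. Single neuron markers did not all follow their sum. Stmn2 had means of 16.1 ± 10.8 (SD, n = 4), 50.5 ± 24.2 and 50.9 ± 70.0 normalised counts in the same order of groups, Gad2 had 8.75 ± 13.6 in BLZ945 tdT+ libraries, and Tubb3 had 9.72 ± 9.61, 12.7 ± 14.9 and 1.52 ± 1.34. The part of neuronal RNA in the Meg3 values was not tested. The sum of 7 astrocyte markers was between 769 and 1480 in vehicle tdT+, between 1095 and 3047 in BLZ945 tdT+ (Aqp4 at 0) and between 2315 and 4209 in tdT- libraries. The sum of 7 fibroblast markers lay between 188 and 717, between 355 and 425 and between 49.6 and 438 in the same order of groups, and that of 7 pericyte and smooth muscle markers between 0 and 42.4, between 19.5 and 64.5 and between 10.55 and 28.2, so that both overlapped between groups. The astrocyte ranges of vehicle and BLZ945 tdT+ libraries overlapped. The microglia sums did not overlap, with at most 76085 in vehicle tdT+ libraries and at least 80456 in BLZ945 tdT+ libraries. Microglia sums were highest in tdT- libraries. The astrocyte sums of tdT- libraries lay above those of vehicle and overlapped those of BLZ945 tdT+ libraries. Single astrocyte markers did not all follow their sum. Slc1a3 had means of 238, 599 and 1731 normalised counts in the same order of groups, whereas Gfap had 60.9, 43.3 and 67.8. The part of these cell types in the Meg3 values was not tested. Mitochondrial genes took between 0.702% and 1.13% of counts in vehicle tdT+, between 0.515% and 0.589% in BLZ945 tdT+ and between 0.324% and 0.631% in tdT- libraries, and their part was not tested either. In bulk samples, fewer cells that express a gene and less RNA per cell cannot be told apart.

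**Figure D1:**
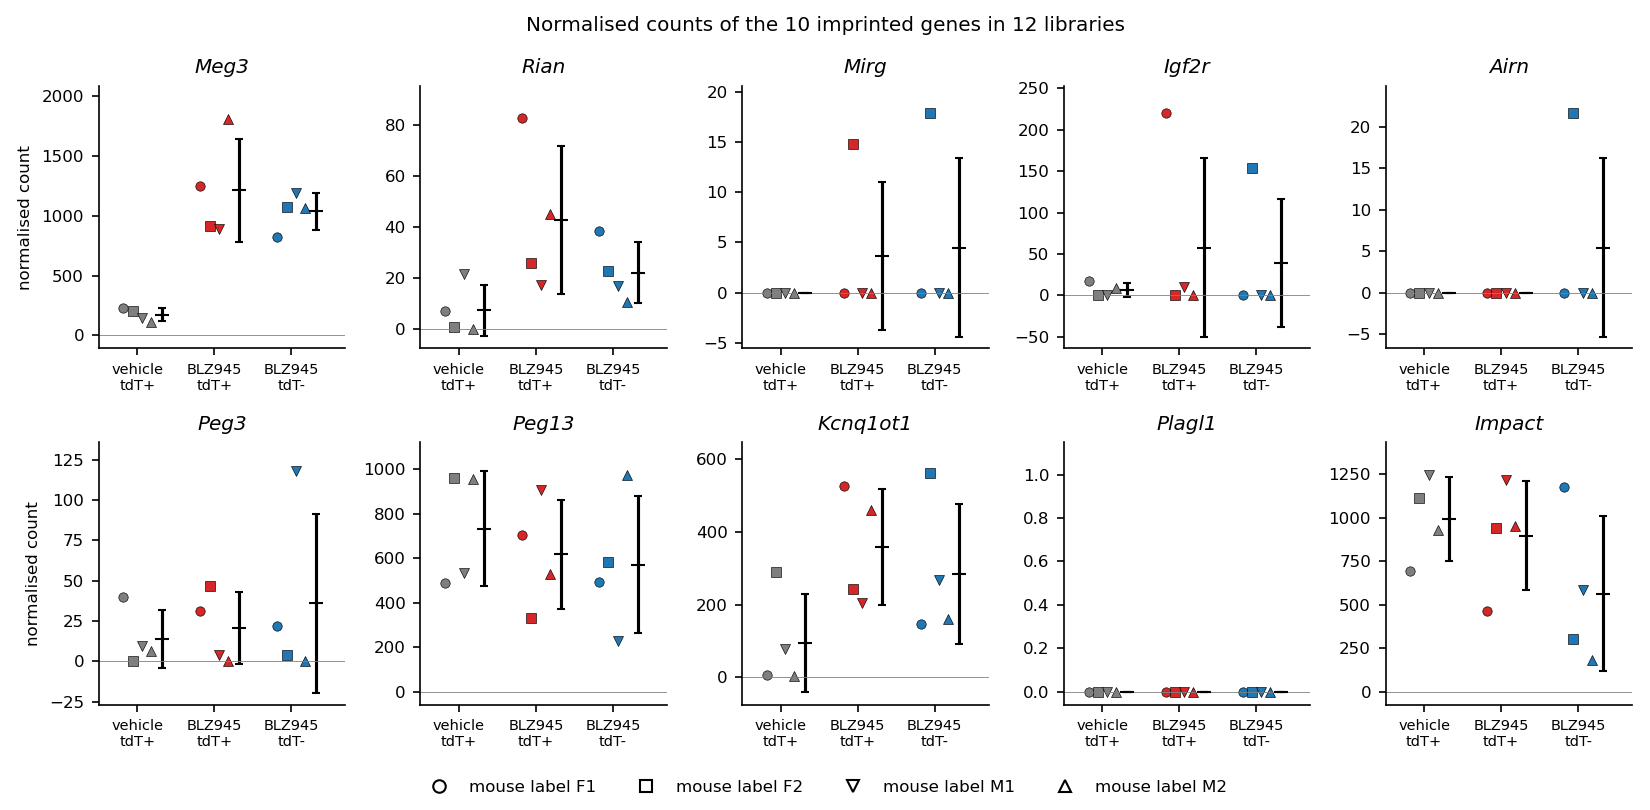
Normalised counts (y axis, a separate scale in each panel) of the 10 genes in vehicle tdT+, BLZ945 tdT+ and BLZ945 tdT- libraries, with 1 symbol per library shaped by mouse label and, beside them, the mean with its SD (n = 4). In the Meg3 panel all 8 BLZ945 libraries, at 824 or more, lie above the 4 vehicle libraries, at 229.6 or less, and the groups of the other genes overlap.

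Rian is the noncoding RNA downstream of Meg3 and hosts C/D box small nucleolar RNAs. Its vehicle tdT+ libraries F1, F2, M1 and M2 held 7.02, 0.990, 21.6 and 0 normalised counts. The BLZ945 tdT+ libraries held 82.8, 25.8, 17.4 and 45.1, and the BLZ945 tdT- libraries 38.6, 22.6, 16.9 and 10.52. Rian was thus lowest in 3 of the 4 vehicle libraries, but the vehicle library M1 overlapped both other groups.

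The difference of Rian between BLZ945 tdT+ and vehicle tdT+ cells was 2.52 ± 1.28 on the unshrunken log2 scale, beside 2.83 ± 0.32 for Meg3. The shrunken value on which calls rest was 0.02. In tdT- cells the difference from BLZ945 tdT+ was -0.95 ± 1.26 (DESeq2 adjusted p = 0.864) and that from vehicle 1.57 ± 1.28 (not called). Without the vehicle library M1, left out after its value was seen, the latter was 3.06 ± 1.36. Rian passed the filter on low counts only through its BLZ945 libraries, so its differences from vehicle are a description with no test.

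Mirg, the host RNA of a microRNA cluster, had counts in 2 libraries only, the BLZ945 tdT+ library F2 with 14.7 and the tdT- library F2 with 17.9 normalised counts, both from the same mouse. It had 0 counts in the 4 vehicle libraries, which allows up to 3 counts in each. An exact permutation test of tdT- against BLZ945 tdT+ cells gave p = 1.0 (two-sided, 70 assignments, adjusted p = 1.0 over 4 tests). With counts in 1 library of each group, it could give no other value. The same held against vehicle, with counts in 1 library, so nothing is read from either test.

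The interval of the domain from Begain to Dio3 held 121 rows, of which 10 had any count. Its 61 microRNA rows all had 0 counts. The plus-strand rows between Rian and Mirg were Gm37899 and B830012L14Rik, noncoding RNAs whose exons share 815 bases with each other. Gm37899 had 0, 0, 0.866 and 0 normalised counts in vehicle F1, F2, M1 and M2. It had 68.1, 19.4, 23.6 and 28.3 in BLZ945 tdT+ and 59.5, 72.5, 0 and 33.5 in tdT- libraries. The vehicle and BLZ945 tdT+ libraries of Gm37899 did not overlap, and the tdT- library M1 fell among the vehicle libraries. B830012L14Rik had a single count in the vehicle libraries, between 9.23 and 42.4 normalised counts in BLZ945 tdT+ libraries and, in tdT- cells, 39.2 in M2 and 0 in the other 3 libraries. Both rows reached the filter only through the BLZ945 libraries in which they are high, so their values are a description with no test.

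Summed over the 4 plus-strand rows from Rian to Mirg, a sum chosen after their values were seen, vehicle F1, F2, M1 and M2 held 7.02, 0.990, 23.4 and 0 normalised counts. The sum was 189.6, 102, 50.2 and 91.2 in BLZ945 tdT+ and 98.1, 113, 16.9 and 83.2 in BLZ945 tdT- libraries. All 4 BLZ945 tdT+ libraries lay above the vehicle libraries, and 3 of 4 tdT- libraries did, M1 being the exception.

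The protein-coding genes of the paternal copy in the domain were near the floor. Dlk1, which encodes a transmembrane regulator of growth, lay at 15.4 normalised counts or less in each tdT+ library and reached 85.1 in the tdT- library M2. Rtl1, a gene derived from a retrotransposon, had counts in the tdT- library F1 alone (5.22), and Dio3, a deiodinase that inactivates thyroid hormone, did not exceed 5.27. Gm3379, between Mirg and Dio3 on the minus strand, was counted in every library, from 23.9 to 103, and its difference between BLZ945 tdT+ and vehicle cells was -0.67 ± 0.66 on the log2 scale (DESeq2 adjusted p = 0.9997). Begain, at the far end, had 0 counts in 3 vehicle libraries and 30.1 normalised counts in the fourth, while 3 of 4 BLZ945 tdT+ libraries held counts.

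**Figure D2:**
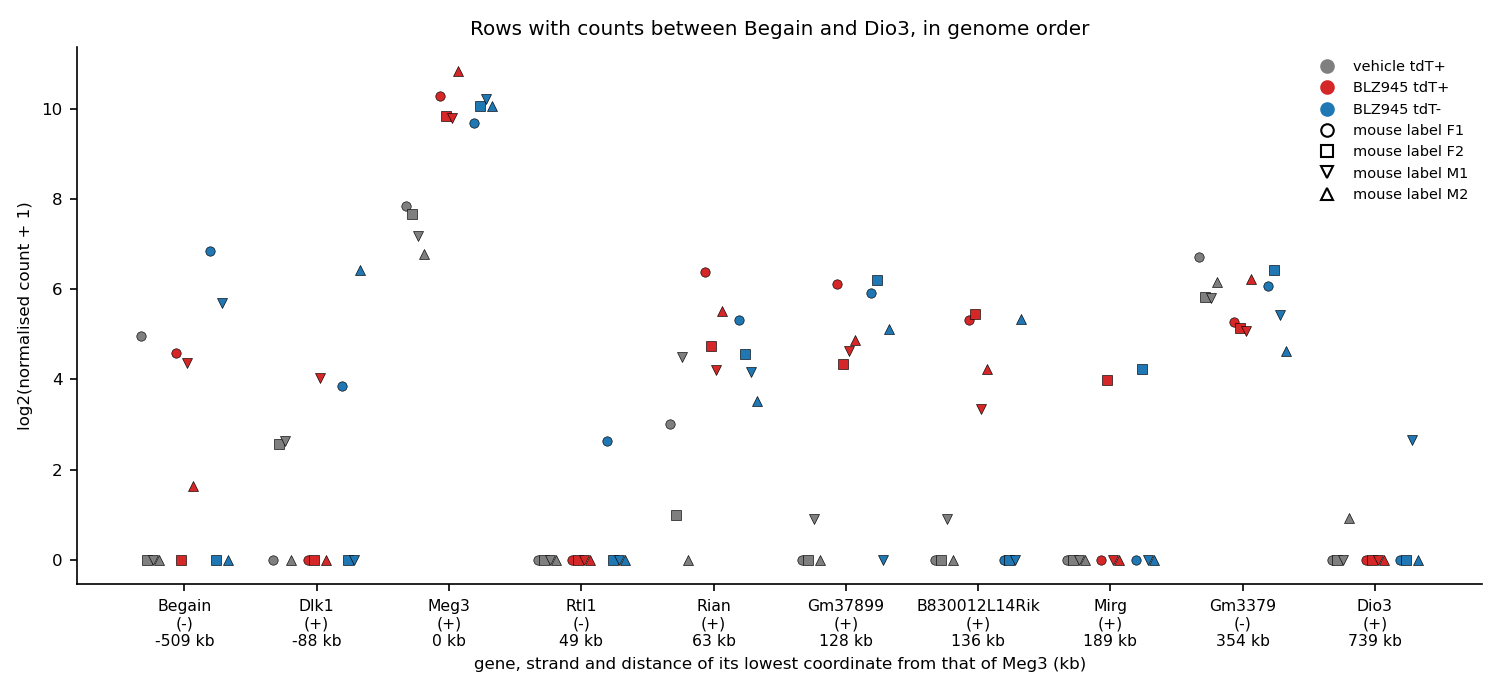
log2(normalised count + 1) per library (y axis) of the 10 rows with counts between Begain and Dio3 (x axis, in genome order with strand and distance from Meg3 in kb), coloured by group and shaped by mouse label. Meg3 is the highest row in all 12 libraries, Rian, Gm37899 and B830012L14Rik are at or near 0 in most vehicle libraries, and Gm3379 is at a similar level in the 3 groups.

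The first of the other loci is that of Igf2r, which encodes the receptor that clears IGF2 and carries mannose 6-phosphate proteins to lysosomes. Igf2r had 220 normalised counts in the BLZ945 tdT+ library F1 and 154 in the tdT- library F2, and between 0 and 17.04 in the other 10 libraries. A single library thus made each of the BLZ945 means, 57.5 ± 108 for tdT+ and 38.6 ± 77.2 for tdT- cells, against 6.51 ± 8.21 in vehicle. The log2 difference of BLZ945 tdT+ from vehicle was 3.14 ± 2.99 with and -0.93 ± 3.69 without the library F1. DESeq2 gave no adjusted p for Igf2r, and the edgeR adjusted p was 0.975 for tdT- against BLZ945 tdT+ and 0.799 for tdT- against vehicle. Airn, the antisense RNA that silences Igf2r on the paternal copy, had 21.7 normalised counts in the tdT- library F2, the library rich in neutrophil RNA, and 0 in the other 11. The part of neutrophil RNA in these Igf2r, Airn and Mirg counts was not tested. With counts in 1 library, an exact permutation test of Airn could give only p = 1.0. Annotated exons of Igf2r and Airn do not overlap, although the spans of the 2 genes do. Reads of their spliced RNA could thus be told apart without strand, but reads of unspliced RNA not always.

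Kcnq1ot1 is the paternal antisense RNA that silences the Kcnq1 domain. Its vehicle tdT+ libraries F1, F2, M1 and M2 held 5.01, 289, 77.05 and 1.80 normalised counts. The BLZ945 tdT+ libraries held 527, 241, 204 and 461, and the tdT- libraries 145, 563, 269 and 161. Of the 4 vehicle libraries, 3 lay below all 8 BLZ945 libraries, while the vehicle library F2 overlapped both groups.

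Kcnq1ot1 differed between BLZ945 tdT+ and vehicle tdT+ cells by 1.94 ± 1.01 on the unshrunken log2 scale (0.03 shrunken, not called). In tdT- cells the difference from vehicle was 1.61 ± 1.01 (DESeq2 adjusted p = 0.475) and that from BLZ945 tdT+ cells -0.33 ± 1.01 (DESeq2 adjusted p = 0.962). Without the vehicle library F2 the differences from vehicle were 3.68 ± 0.96 in BLZ945 tdT+ and 3.34 ± 0.96 in tdT- cells. The library was left out after its value was seen, so no test is read from them. It also held Kdm5d counts against its label, and the part of that was not tested. Kcnq1ot1 shares 121 exon bases with Kcnq1 on the other strand, to which 58 counts over all libraries were assigned, against 3022 for Kcnq1ot1.

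Peg13, a paternal noncoding RNA within Trappc9, was among the highest of the 10 genes. It ranged from 486 to 959 normalised counts in vehicle tdT+, from 329 to 906 in BLZ945 tdT+ and from 229 to 975 in tdT- libraries, with medians of 744, 617 and 538. The 3 groups overlapped almost wholly. The difference of BLZ945 tdT+ from vehicle was -0.25 ± 0.45, that of tdT- from BLZ945 tdT+ -0.11 ± 0.45 (DESeq2 adjusted p = 0.974) and that of tdT- from vehicle -0.36 ± 0.45 (DESeq2 adjusted p = 0.847). Peg13 shares 1293 exon bases with Trappc9 on the same strand, so part of its reads may belong to that gene, which had 11939 counts over all libraries against 7969.

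Impact, which restrains the amino acid sensor GCN2, ranged from 691 to 1247 normalised counts in vehicle tdT+, from 465 to 1217 in BLZ945 tdT+ and from 180 to 1180 in tdT- libraries. The tdT- libraries F2, M1 and M2 held 305, 584 and 179.8, whereas F1 held 1179.8. The difference of tdT- from BLZ945 tdT+ was -0.67 ± 0.49 (DESeq2 adjusted p = 0.606), that of tdT- from vehicle -0.82 ± 0.49 (DESeq2 adjusted p = 0.435) and that of BLZ945 tdT+ from vehicle -0.15 ± 0.49. Without the tdT- library F1, the differences of tdT- cells were -1.33 ± 0.43 from BLZ945 tdT+ and -1.48 ± 0.43 from vehicle. This library was left out after its value was seen, so no test is read from these differences.

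Peg3, a zinc finger protein of the paternal copy, was sparse in every group, at most 40.1 normalised counts in vehicle tdT+, 47.0 in BLZ945 tdT+ and 118 in tdT- libraries, with 1 library at 0 in each group. Its differences in tdT- cells were 0.80 ± 1.94 from BLZ945 tdT+ (DESeq2 adjusted p = 0.942) and 1.36 ± 1.94 from vehicle (DESeq2 adjusted p = 0.876). Without the tdT- library M1, these turned to -1.27 ± 2.22 and -0.71 ± 2.22. Plagl1, a zinc finger transcription factor, had 0 counts in all 12 libraries, which allows up to 3 counts in each.

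Of the 10 genes, 1 (Meg3) was called in BLZ945 tdT+ against vehicle tdT+ cells, where 0.168% of the 13724 genes were called with a shrunken log2 fold change of 1 or more in size and an adjusted p no higher than 0.05. Since this contrast chose the genes, nothing is read from the count. Between tdT- and BLZ945 tdT+ cells, 0 of the 7 fitted genes were called, against 2.25% of all genes. DESeq2 and edgeR each found 0 at an unadjusted p under 0.05 there, and edgeR called 0. Between tdT- and vehicle cells Meg3 alone was called, against 2.55% of all genes, and those calls share the vehicle libraries that chose it. The groups did not overlap for 1 of the 7 fitted genes (Meg3) in BLZ945 tdT+ against vehicle, where this held for 6.72% of all fitted genes. For tdT- against BLZ945 tdT+ the count was 0 of 7 (9.35% of all fitted genes). For tdT- against vehicle it was 1 of 7, again Meg3 (9.7% of all fitted genes).

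**Figure D3:**
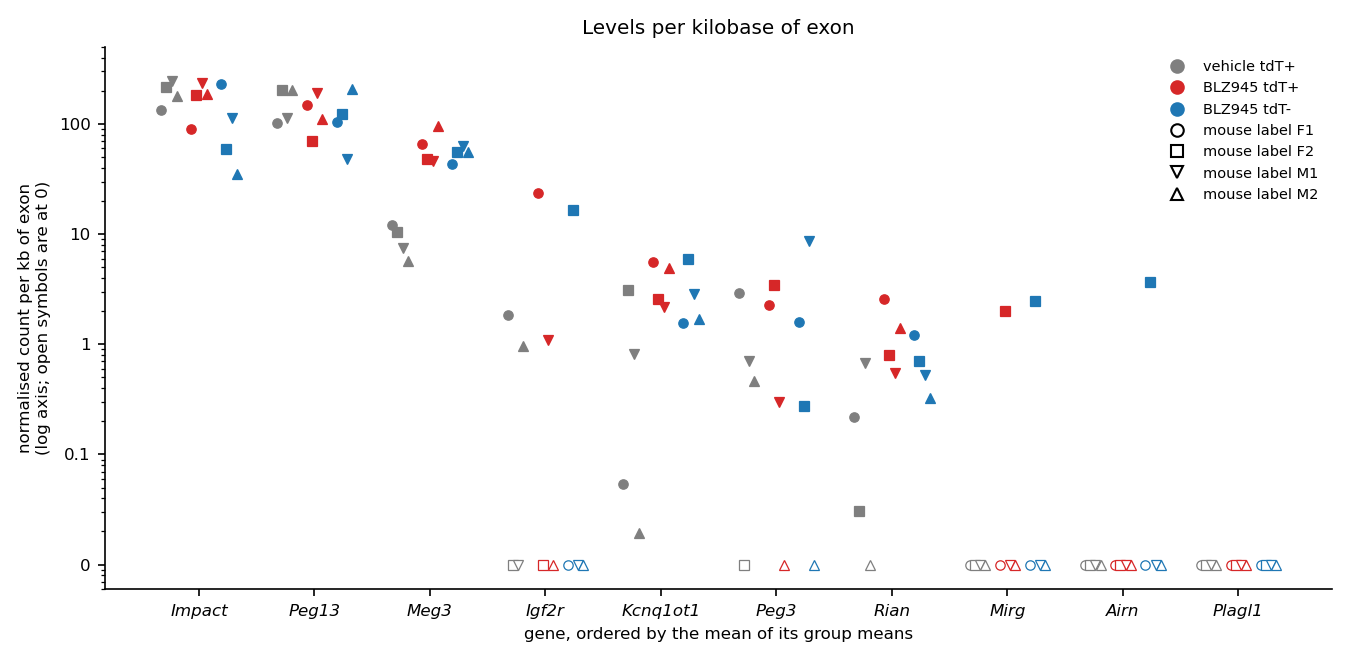
Normalised counts per kb of exon (y axis, log scale, with libraries at 0 drawn as open symbols on the line marked 0) of the 10 genes, coloured by group and shaped by mouse label. Impact and Peg13 lie above Meg3 in vehicle libraries, and Meg3 moves to between 43.2 and 95.1 in BLZ945 libraries, into the lower part of their range.

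Per kilobase of exon, which lets genes be compared in level, the order in vehicle tdT+ cells was Impact (194 ± 47.0 normalised counts per kb, n = 4), Peg13 (155 ± 54.9), Meg3 (8.95 ± 2.87), Peg3 (1.03 ± 1.31), Kcnq1ot1 (0.996 ± 1.44), Igf2r (0.700 ± 0.882) and Rian (0.232 ± 0.312). Impact and Peg13 overlapped, Meg3 overlapped neither them nor the genes below it, and the last 4 overlapped each other. In BLZ945 tdT+ cells the order was Impact (175 ± 61.1), Peg13 (131 ± 52.2), Meg3 (63.7 ± 22.6), Igf2r (6.18 ± 11.6), Kcnq1ot1 (3.83 ± 1.71), Peg3 (1.51 ± 1.65), Rian (1.34 ± 0.910) and Mirg (0.506 ± 1.01). Here the range of Meg3, from 46.6 to 95.1, overlapped that of Peg13, which began at 69.6, and that of Impact, which began at 90.6. In tdT- cells Meg3 was at 54.5 ± 8.14, again below Peg13 (121 ± 65.4) and Impact (109.6 ± 86.8) with overlapping ranges. Rian was thus far below Meg3 per kb in each group, by group means of 0.232 against 8.95 in vehicle, 1.34 against 63.7 in BLZ945 tdT+ and 0.693 against 54.5 in tdT- cells.

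A longer list of 61 imprinted genes, grouped by domain, was used to see what imprinted genes did more widely. Whether each of these genes is imprinted in sdCAMs was not examined. Of these, 60 were in the table, 10 had 0 counts in all libraries and 32 were fitted, 25 of them outside the 10 genes above. Between BLZ945 tdT+ and vehicle cells, 0 of these 25 were called by DESeq2 or edgeR, where DESeq2 called 0.168% of all genes. Each tool gave 1 at an unadjusted p under 0.05. Their median log2 fold change was -0.02 against 0.03 for all genes, and 12 of 25 were above 0. At the adjusted p alone 0 of the 25 passed, against 0.955% of all genes.

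The 5 of the 25 with the highest level per kb were Gnas, Blcap, H13, Commd1 and Cdkn1c. Gnas encodes the alpha subunit of the stimulatory G protein, and Cdkn1c encodes the cyclin-dependent kinase inhibitor p57. Between BLZ945 tdT+ and vehicle cells their log2 differences were 0.07 ± 0.10 (Gnas), -0.11 ± 0.27 (Blcap), 0.15 ± 0.15 (H13), -0.02 ± 0.18 (Commd1) and -0.18 ± 0.42 (Cdkn1c), with DESeq2 adjusted p of 0.9997 for each. These well-counted genes differed by no more than their standard errors in the contrast in which Meg3 differed by 2.83.

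Tspan32, a tetraspanin of blood cells at the edge of the Kcnq1 domain, was the gene of the longer list called in tdT- cells beside Meg3. It held 169, 78.2, 206 and 84.7 normalised counts in vehicle F1, F2, M1 and M2, 85.6, 72.8, 86.1 and 30.4 in BLZ945 tdT+ and 1267, 1234, 972 and 526 in tdT- libraries. The tdT- libraries lay above all others. Tspan32 was 3.86 ± 0.47 higher than in BLZ945 tdT+ cells on the log2 scale (DESeq2 adjusted p = 8.00e-14) and 2.89 ± 0.47 higher than in vehicle cells (DESeq2 adjusted p = 5.78e-08). Without the tdT- library F2 these were 3.74 ± 0.54 and 2.77 ± 0.53. In BLZ945 tdT+ against vehicle cells it was -0.97 ± 0.47 (DESeq2 adjusted p = 0.558). Meg3 and Tspan32 thus had different patterns, the former higher in both BLZ945 groups and the latter in tdT- cells.

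Of the 25 genes, 1 was called between tdT- and BLZ945 tdT+ cells (2.25% of all genes). Between tdT- and vehicle cells 1 was called (2.55% of all genes), Tspan32 both times. At the adjusted p alone, 5 of 25 passed in the former (6.38% of all genes) and 3 of 25 in the latter (6.76% of all genes). The groups did not overlap for 3 of 25 in the former (9.35% of all genes) and 6 of 25 in the latter (9.7% of all genes). The median log2 fold change of the 25 was -0.26 and -0.27, against 0.0036 and 0.03 for all genes. Beside Tspan32, H13 was higher in tdT- cells by 0.48 ± 0.15 against BLZ945 tdT+ (DESeq2 adjusted p = 0.0248) and 0.63 ± 0.15 against vehicle (DESeq2 adjusted p = 0.00101). Gnas was higher by 0.30 ± 0.10 (DESeq2 adjusted p = 0.0345) and 0.37 ± 0.10 (DESeq2 adjusted p = 0.00387). Against BLZ945 tdT+ cells, Gnas passed the adjusted p in 4 and H13 in 9 of 18 other fits (edgeR adjusted p = 0.180 and 0.105), and against vehicle in 17 and 18 (edgeR adjusted p = 0.0862 and 0.0292). Peg10 and Slc22a2 passed as lower against BLZ945 tdT+ cells on few counts, Peg10 with 2.11 normalised counts in a single tdT- library and between 5.24 and 96.4 in BLZ945 tdT+ libraries, and Slc22a2 with 0 in tdT- libraries and counts in BLZ945 tdT+ F1 alone (66.3). Both reached the filter on low counts only through tdT+ libraries, so their values are a description with no test. They are among the 5 of 25 above, and neither passed in edgeR.

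**Figure D4:**
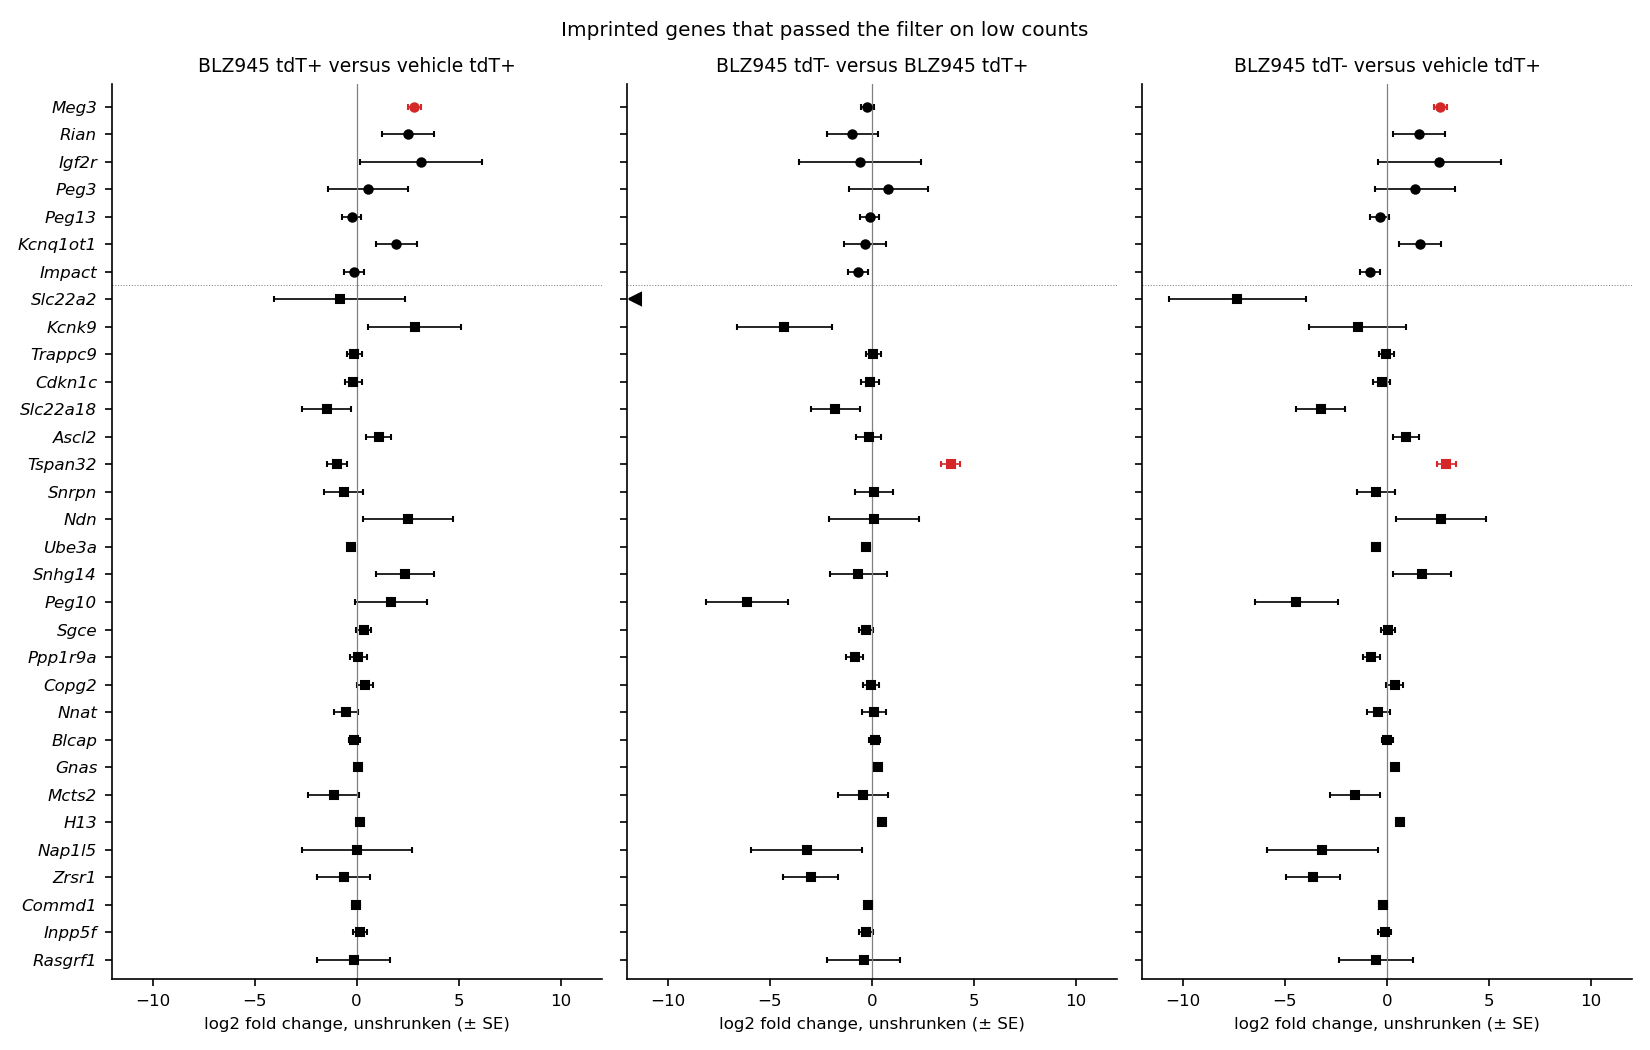
Unshrunken log2 fold changes (x axis, bars are standard errors) of the 32 fitted imprinted genes in the 3 comparisons, with the 7 genes of the first paragraph above the dotted line, called genes in red and Slc22a2 in the middle panel beyond the left edge at -20.95. Meg3 is the called gene of the left panel at 2.83, Tspan32 that of the middle panel at 3.86, and both are called in the right panel.

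A list of 24 factors that set or keep imprints (among them DNA methyltransferases, TET enzymes, histone methyltransferases, Polycomb proteins, zinc finger proteins, Atrx, Daxx and Ctcf) had 20 fitted members. DESeq2 and edgeR called 0 of the 20 in each comparison. Of all fitted genes, DESeq2 called 0.168% in BLZ945 tdT+ against vehicle, 2.25% in tdT- against BLZ945 tdT+ and 2.55% in tdT- against vehicle. With shares this low, nothing is read from the count. At an unadjusted p under 0.05, both tools found 0 in BLZ945 tdT+ against vehicle, 0 in tdT- against BLZ945 tdT+ and 2 in tdT- against vehicle. Their median log2 fold change in BLZ945 tdT+ against vehicle cells was 0.13, against 0.03 for all genes.

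Of 24 further long noncoding RNAs, 19 were fitted and 0 were called by either tool in any comparison. DESeq2 called 0.168%, 2.25% and 2.55% of all fitted genes in the same order of comparisons, so nothing is read from this count. At an unadjusted p under 0.05, DESeq2 found 1, 1 and 2 of them and edgeR 1, 0 and 2. Malat1, an abundant nuclear RNA, passed the adjusted p alone, being 0.47 ± 0.13 higher in BLZ945 tdT+ (DESeq2 adjusted p = 0.0298) and 0.40 ± 0.13 higher in tdT- cells (DESeq2 adjusted p = 0.0265) than in vehicle cells. Its edgeR adjusted p was 0.365 and 0.175, and it passed in 11 of 18 other fits in each.

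The genes most like Meg3 across the 12 libraries were then sought, among 9590 other fitted genes whose mean reached 100 normalised counts, by Pearson's r of log2(normalised count + 1). The 10 highest were Gm57271 (r = 0.938), Zfp36 (0.936), Jun (0.927), Fos (0.921), Cd84 (0.913), Dusp1 (0.904), Ero1a (0.899), Chaserr (0.898), Creld2 (0.896) and Igsf6 (0.896). Jun and Fos form the AP-1 transcription factor, Zfp36 speeds the decay of cytokine mRNAs and Dusp1 inactivates MAP kinases, and these 4 are immediate early genes, which also rise when tissue is dissociated. Chaserr is a noncoding RNA next to Chd2, and Ero1a and Creld2 act in protein folding in the endoplasmic reticulum. These values describe libraries that share their handling and fall into 4 vehicle and 8 BLZ945 libraries, so r rises for any gene that differs between those groups, and no p is given.

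Within the 8 BLZ945 libraries the order was another one. There r with Meg3 was 0.668 for Gm57271, 0.383 for Cd84, 0.391 for Ero1a and 0.332 for Igsf6, but -0.480 for Zfp36, -0.191 for Jun, -0.109 for Fos and 0.035 for Dusp1. The genes were picked by r over all 12 libraries, and the 8 pool tdT+ and tdT- cells, so nothing is read from this order. Beside the change of Meg3 from vehicle to BLZ945 tdT+ cells, Fos changed from 747 to 4014, Jun from 2760.4 to 8594, Zfp36 from 2778 to 7886 and Dusp1 from 488 to 2550.5 normalised counts as group means. Whether the rise of these genes had a part in that of Meg3 was not tested.

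Of the other 9 imprinted genes, 3 were above this level, and of these Kcnq1ot1 was the most like Meg3, at rank 83 of 9590 with r = 0.752 over 12 and 0.649 over the 8 BLZ945 libraries. Peg13 (r = -0.312) and Impact (r = -0.402) were not like it. Malat1 had r = 0.820 over 12 and 0.688 over 8 libraries, at rank 36.

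**Figure D5:**
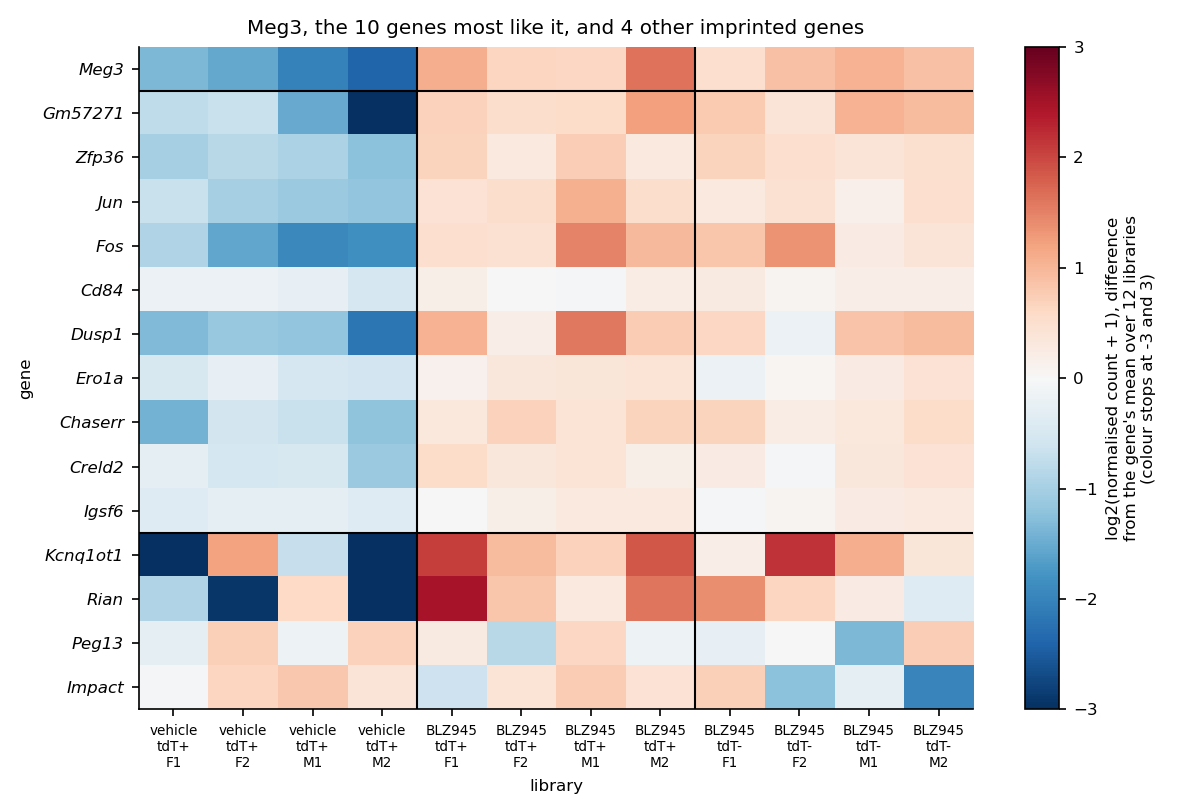
Difference of log2(normalised count + 1) from the mean of each gene over 12 libraries (colour, which stops at -3 and 3) for Meg3, the 10 genes most like it and Kcnq1ot1, Rian, Peg13 and Impact (rows) in each library (columns, grouped as vehicle tdT+, BLZ945 tdT+ and BLZ945 tdT-). The first 11 rows are blue in all vehicle libraries and mostly red after BLZ945, Kcnq1ot1 follows except in vehicle F2, and Peg13 and Impact do not separate the groups.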

How the data were processed

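The deposited table holds raw read counts for each gene name in 12 libraries. Per the file headers, the authors ran featureCounts 2.0.6 over the exons of GENCODE M33 (GRCm39), filtered and extended by tdTomato. No option for strand or for multi-mapping reads was given. The submitters' processing notes also name bcl2fastq 2.20, STAR 2.7.11a and DESeq2 1.46.0. Per the labels, cDNA from low-input RNA was PCR-amplified. Counts are therefore no independent molecules, and floors cover counting error only. All 12 columns were assigned to a library by the name they carry, with 0 unassigned. The header of the vehicle library M2 names mouse M1 and was matched through its library number. Totals per library are given with the results.

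The filter dropped genes that stayed below 10 counts in 75% or more (9) of the 12 libraries. DESeq2 1.42.0 in R 4.3.3 was fitted to all 12 libraries with group as the term (two-sided Wald test, Benjamini-Hochberg adjustment over all fitted genes), with shrinkage by apeglm 1.24.0. Genes were called with a shrunken log2 fold change of 1 or more in size and an adjusted p no higher than 0.05. Printed log2 fold changes are unshrunken. Alternatives included edgeR 4.0.16. The fit was tested on simulated data. Libraries with the same mouse label in the BLZ945 tdT+ and tdT- groups come from the same mouse. The correlation of their deviations from the group means across genes lay between -0.0046 and 0.035, and the vehicle mice share the label only. No pair of replicates was near sampling noise (smallest chi-square per degree of freedom 48.4 over 18 pairs). Nothing states whether libraries were prepared separately beyond the mouse labels, so p-values measure the spread between these 12 libraries.

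The 10 genes, the other lists, the motifs and the tests were chosen with earlier results of these data known. Named beside the 10 genes were imprinted genes called in any comparison, the 5 others with the highest level per kb, the 10 genes most like Meg3 and the neighbours of Meg3 from Begain to Dio3. Other genes were named after their values were seen. Promoter windows came from RefSeq on GRCm38.p6 and were matched by symbol.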

Additional observations from a re-analysis of the deposited data

Results flagged for a closer look

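In 27 sets of 4 libraries (the 10 genes and Tspan32 in each group, leaving out sets at 0 throughout), 5 held a library set apart from the other 3 by more than Dixon's 95% critical value. A set with counts in a single library exceeds this value by construction, so the number is not compared with chance. Each of the 5 concerned a sparse gene. Mirg stood at 14.7 normalised counts in the BLZ945 tdT+ library F2 and at 17.9 in the BLZ945 tdT- library F2, with 0 in the other libraries of both groups. Igf2r stood at 220 (219.9) in the BLZ945 tdT+ library F1, where the next library held 10.3, and at 154 in the BLZ945 tdT- library F2, where the next held 0. Airn stood at 21.7 in the BLZ945 tdT- library F2, with 0 in the other 3. Of these 5 values, 3 came from the tdT- library F2, in which neutrophil markers summed to 422704 normalised counts, and the part of that was not tested.

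The difference between groups was also compared between mice labelled F and M. By edgeR's quasi-likelihood test of the interaction, of 21 tests on the 7 fitted genes of the 10, 0 passed an adjusted p of 0.05 (lowest 0.803) and 0 had an unadjusted p under 0.05. DESeq2 was not run for this term.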

How the results depend on the processing

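As a description, since these libraries chose it, the log2 fold change of Meg3 against vehicle was computed in 18 other fits (edgeR, TMM factors inside DESeq2, no filter, the mouse letter as covariate, the 8 libraries alone, the replicate block and each of 12 libraries left out). It lay between 2.57 and 3.01 in BLZ945 tdT+ and between 2.44 and 2.78 in tdT- cells. Tspan32 stayed called in tdT- cells in the same fits, at 3.62 to 4.07 against BLZ945 tdT+ and 2.71 to 3.17 against vehicle. With the adjusted p alone, 5 in place of 1 imprinted genes were counted between tdT- and BLZ945 tdT+ cells and 4 in place of 2 between tdT- and vehicle cells, since the fold threshold was dropped. With each library left out, the count of imprinted genes called lay between 1 and 2 for BLZ945 tdT+ against vehicle (2 without vehicle F2, with Kcnq1ot1), between 1 and 2 for tdT- against BLZ945 tdT+ (2 without tdT- F1, with Impact) and between 2 and 3 for tdT- against vehicle (3 without vehicle F2, with Kcnq1ot1, without tdT- F1, with Impact, and without BLZ945 tdT+ F1, with Zrsr1).

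The mouse label as a replicate block called 1 imprinted gene in BLZ945 tdT+ against vehicle, 1 in tdT- against BLZ945 tdT+ and 3 in tdT- against vehicle. The third gene was Kcnq1ot1, at 3.34 ± 0.96 (DESeq2 adjusted p = 0.0107), although vehicle and BLZ945 mice share that label only. The cause was not tested. Deviations of same-labelled vehicle and BLZ945 tdT+ libraries correlated at 0.0040 to 0.048 and those of vehicle and tdT- libraries at -0.018 to 0.021. The block changed no other call. Of 378 values of the 7 fitted genes under other settings, 5 became called, 0 lost a call or reversed, 14 moved by more than their standard error and 359 did neither. Depth limits Rian, Mirg, Igf2r, Airn and Peg3, whose counts lay at or near the floor in several libraries.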

Other observations

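The values of 3 sparse imprinted genes outside the 10 are given here, chosen after they were seen. Zrsr1, a retrogene that encodes a splicing factor, had means of 86.9 ± 18.6 (SD, n = 4) normalised counts in vehicle tdT+, 56.0 ± 44.8 in BLZ945 tdT+ and 7.01 ± 7.87 in tdT- libraries. Its tdT- and vehicle libraries did not overlap, as for 9.7% of all genes, and the difference of -3.64 ± 1.33 on the log2 scale had a DESeq2 adjusted p of 0.0789. Slc22a18, a transporter of the Kcnq1 domain, had means of 252 ± 172, 91.3 ± 54.1 and 26.4 ± 31.0, and its tdT- and vehicle libraries did not overlap either (-3.25 ± 1.21, DESeq2 adjusted p = 0.0871). Kcnk9, a potassium channel gene of the Peg13 domain, had means of 4.25 ± 7.25, 30.3 ± 24.1 and 1.56 ± 3.13. Its difference between tdT- and BLZ945 tdT+ libraries was -4.28 ± 2.33. Kcnk9 reached the filter on low counts only through tdT+ libraries, so its values are a description with no test. The differences of Zrsr1 and Slc22a18 did not pass the threshold.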
